A study of Mus musculus with 2 samples.

Results

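The vascular smooth muscle cells described here came from a single-cell RNA-seq comparison of limb muscle from aged C57BL/6 mice given the drug Maraviroc (MVC) and aged C57BL/6 mice given the vehicle DMSO, both by intraperitoneal injection. Mononuclear cells were freed from the muscle, cleared of red blood cells, sorted as live cells and captured on the 10x Genomics platform, and the study used the comparison to ask how MVC acts on the aged muscle niche. Each treatment had 1 library, and the number of mice behind each was not given in the sources used here. A cell was kept when it held at least 500 detected genes and at most 10% of its UMIs (unique molecular identifiers, each standing for a captured mRNA molecule) from mitochondrial genes. A kept cell entered the smooth muscle gate when it held a UMI of at least 3 of the 6 genes Myh11, Cnn1, Lmod1, Actg2, Pln and Synpo2, of at most 1 of the 3 endothelial genes Pecam1, Cdh5 and Flt1, and under 2 UMIs each of Pdgfra and Ptprc, which mark fibro-adipogenic progenitors and leukocytes. The gate held 184 of 10891 kept cells, of which 107 of 5437 came from the DMSO library and 77 of 5454 from the MVC library. The cells were chosen on these transcripts, so the levels of the gate genes are a description. With 1 library per treatment no difference could be set against a spread between replicates, no p-value is given, and every interval is a 95% interval that covers counting error only (exact for shares and ratios, Newcombe's for a difference of shares).

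Vascular smooth muscle cells wrap arteries, arterioles and venules and set vessel diameter. Calcium that enters through voltage-gated channels or leaves the sarcoplasmic reticulum activates myosin light chain kinase, and smooth muscle myosin then pulls on actin filaments that are organised by calponin, tropomyosin, caldesmon and transgelin. Receptors for noradrenaline, vasopressin, angiotensin and endothelin raise this drive, while nitric oxide lowers it through soluble guanylate cyclase and the cGMP-dependent kinase. Pericytes sit on capillaries further along the same vascular tree, share the basement membrane of the endothelium, and carry the ATP-sensitive potassium channel made by Kcnj8 and Abcc9. Both are mural cells, and transitional forms between them are well known.

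Many smooth muscle contractile genes are controlled by serum response factor and its partner myocardin through the CArG box, a short element with an A/T-rich core. To show what this element looks like near starts of genes whose transcripts are described below, promoter windows were searched on both strands. Each window ran from 250 bases before to 50 bases after a gene start given by RefSeq (build GRCm38.p6). A box was found in 3 of the 24 contractile genes that had a window (12.5%), against 488 of all 27025 genes with a window (1.81%). With 1 G or C allowed in the core, the counts were 6 of 24 (25%) and 3050 of 27025 (11.3%). None of the 4 gate genes with a window (Lmod1, Synpo2, Cnn1 and Pln) held either form, which says only that these letters are not within this short stretch. The 3 full boxes, and the farther upstream of the 2 relaxed boxes of the actin gene Acta2, are given 5′ to 3′ on the strand of the gene, with the box in capitals. The Myl9 site lies on the plus strand at chr2:156775295-156775320, the Myl6 site on the minus strand at chr10:128493042-128493067, the Vcl site on the plus strand at chr14:20929163-20929188 and the Acta2 site on the minus strand at chr19:34255440-34255465.
Myl9: agcagaggCCTAATAAGGccgggctg
Myl6: tcttacttCCTTATATGGgcaggacc
Vcl: cactatgcCCTTATAAGGagcgcccc
Acta2: gctgaggtCCCTATATGGttgtgtta
The RefSeq starts used can differ from the GENCODE gene bounds given for genes below. The Myl6 and Acta2 sites lie inside those bounds (chr10:128490860-128494145 and chr19:34241090-34255590). A match describes the letters of the promoter window and does not show binding in these cells.

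The gated cells held 852082 UMIs in the DMSO library and 551789 in the MVC library. A gated cell held a median of 7371 UMIs in DMSO (1566 to 20314) and 6813 in MVC (805 to 24331), with medians of 2438 and 2434 genes and 3.72% and 3.81% mitochondrial UMIs. The libraries shared 9 barcodes, none of them among the gated cells, and a simulation-based doublet call marked 1 gated cell in DMSO and 2 in MVC. A further 35 DMSO cells and 42 MVC cells carried 3 or more gate genes and were left out by the clauses on other cell types, nearly all of them by the endothelial clause (33 and 42 cells). Those cells were deeper, with medians of 10385 and 11139 UMIs, and 17 and 7 of them were called doublets. Transcripts of other cell types in the gated cells are given as the summed level of each marker list, in CPM (the UMIs of a gene over all UMIs of the gated cells, times 1000000). Endothelial markers (15 of 15 detected in each library) summed to 1701 CPM in DMSO and 1618 in MVC, mostly Fabp4, Cav1 and Cd36, while the defining Cldn5, Egfl7 and Tie1 had at most 6 UMIs each in a library. Fibroblast markers (14 of 15 in each library) summed to 1716 and 2088 CPM, of which at most 414 and 426 UMIs were in a single cell. Leukocyte markers (8 of 15 detected in DMSO and 9 of 15 in MVC) summed to 38.7 and 29.0 CPM and were found in 19.6% and 16.9% of gated cells. Of that list Cd52, Cd3e and Rac2 were at 0 in both libraries. Schwann cell markers summed to 64.5 and 23.6 CPM. Tenocyte markers summed to 381 and 61.6 CPM, of which a single DMSO cell held 163 of 325 UMIs. Their part in the differences below was not tested, except where a value is given.

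The label was checked against pericyte genes, since the gate asked for smooth muscle transcripts and did not ask for the absence of pericyte ones. Of the 184 gated cells, 96 (52.2%) carried a UMI of at least 3 of the 6 pericyte genes Kcnj8, Abcc9, Higd1b, Vtn, Ndufa4l2 and Cox4i2, 54 of 107 in DMSO (50.5%) and 42 of 77 in MVC (54.5%). The gate therefore held a range of mural cells, from cells rich in the actin gene Acta2 and the transgelin gene Tagln to cells rich in Rgs5, a G protein regulator typical of pericytes. Acta2 and Tagln together ran from 0 to 299 UMIs per 10000 in a DMSO cell, with a median of 19.2 and 19 cells at 0. In MVC they ran from 0 to 373, with a median of 44.6 and 8 cells at 0. Cells with at least 3 pericyte genes had medians of 7.60 (DMSO) and 25 (MVC) for this pair, and the other gated cells 60.3 and 63.7. The order was opposite for Rgs5, at medians of 84.2 and 46.9 UMIs per 10000 in the cells with pericyte genes and 0.645 and 5.75 in the cells without. The full range from one pole to the other was present in both libraries.

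**Figure D1:**
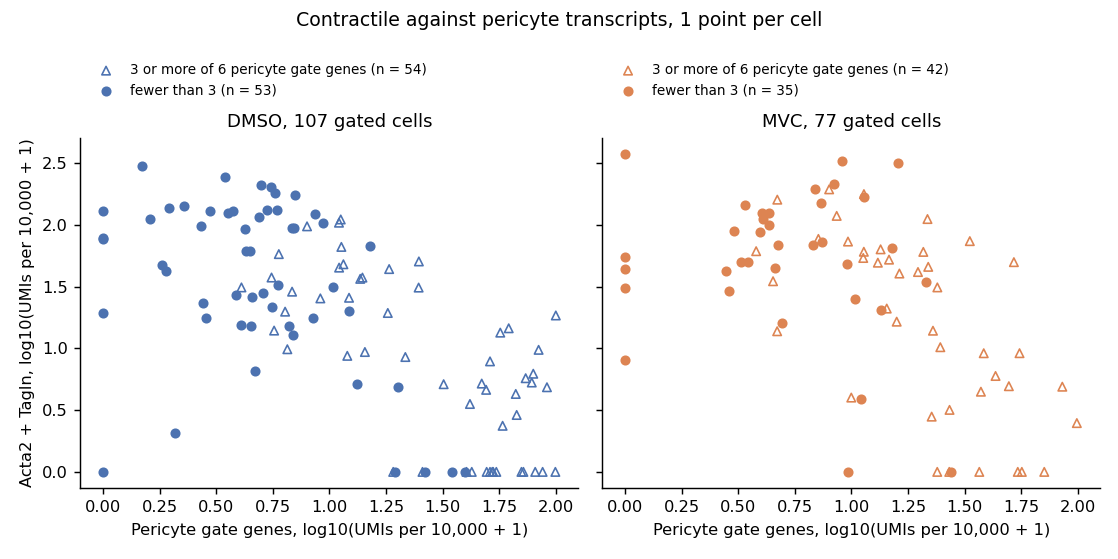
Each point is a gated cell of the DMSO (left, 107 cells) or MVC library (right, 77 cells), with the summed UMIs of the 6 pericyte gate genes on the x axis and of Acta2 and Tagln on the y axis, per 10000 UMIs of the cell as log10 of the value plus 1, and triangles for cells with at least 3 of the pericyte genes. Cells at the upper left are rich in contractile transcripts and poor in pericyte transcripts, and cells at the lower right are the reverse.

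The threshold of 3 gate genes ran through this range. Cells with 2 gate genes that met every other clause, and so lay just outside, numbered 160 in DMSO and 92 in MVC and held Acta2 at 345 and 325 CPM and Rgs5 at 6553 and 4132 CPM. Cells with exactly 3, just inside, numbered 68 and 45 and held Acta2 at 1151 and 1271 CPM and Rgs5 still at 6770 and 5123 CPM. At 4 gate genes (25 and 19 cells) Acta2 stood at 4469 and 4650 CPM and Rgs5 at 900 and 1990 CPM. At 5 (13 cells in each library) the levels were 6539 and 8303 CPM for Acta2 and 377 and 490 CPM for Rgs5. The contractile pole was thus held mainly by the cells with 4 or more gate genes. At least 3 pericyte genes were present in 47 of 68 DMSO cells and 29 of 45 MVC cells with 3 gate genes, and in 6 of 25 and 8 of 19 cells with 4. Cells with more gate genes were also deeper (medians of 6081 and 5860 UMIs at 3 gate genes against 11611 and 9614 at 5), and the part of depth in this order was not tested.

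Of the gate genes, Myh11 (smooth muscle myosin heavy chain, chr16:14194535-14291372, minus strand) was found in 98.1% of the gated DMSO cells and 100% of the MVC cells, at 2040 and 2494 CPM. Pericytes, gated on at least 3 of the 6 pericyte genes with the same clauses and without the smooth muscle gate (198 DMSO and 115 MVC cells), held it at 619 and 635 CPM. Synpo2, an actin-bundling protein, stood at 1064 and 1332 CPM against 582 and 604 CPM in the pericytes. The pericytes were taken from outside the smooth muscle gate, so their lower levels of the gate genes follow from the choice of cells. Lmod1 (leiomodin, which nucleates actin filaments) stood at 334 and 346 CPM against 74.5 and 35.4. Pln (phospholamban, the brake on the reticulum calcium pump) stood at 143 and 138 CPM against 2.22 and 4.42. Cnn1 (calponin) stood at 76.3 and 123 CPM and Actg2 (smooth muscle gamma actin) at 41.1 and 101 CPM, and both were at 0 UMIs in the gated pericytes of either library. These last 3 genes were carried by few cells: Pln was found in 25.2% and 24.7% of the gated cells, Cnn1 in 22.4% and 26%, and Actg2 in 15.9% and 26%.

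Contractile genes that the gate did not use were then compared. Against the gated pericytes, 14 of the 26 contractile genes were at least 2-fold higher in the gated smooth muscle cells in both libraries and none was 2-fold lower, where 129 of all 3677 genes compared were higher (3.51%) and 113 lower (3.07%). The median log2 ratio over the list was 1.20 in DMSO and 1.62 in MVC, beside -0.05 in each library over all genes compared. A gene entered this comparison with at least 50 UMIs over both classes in each library, and log2 ratios carry a pseudocount of 10 CPM. Acta2 (smooth muscle alpha actin, chr19:34241090-34255590, minus strand) stood at 3189 CPM in DMSO and 3775 in MVC against 265 and 318 CPM in pericytes, a log2 difference of 3.54 and 3.53. Tagln (transgelin, chr9:45929619-45936058, minus strand) stood at 2680 and 2965 CPM against 196 and 268. Acta2 and Tagln had the clearest separation of the list. Tpm2 (beta tropomyosin) was at 1250 and 1722 CPM against 209 and 276, and Flna (filamin A, which crosslinks actin) at 689 and 808 CPM against 165 and 177. The separation was small or absent for Cald1 (caldesmon), at 2108 and 2332 CPM against 1925 and 1601, and for Vcl (vinculin, which ties actin to adhesions), at 462 and 560 CPM against 537 and 573. Endothelial cells gated on Pecam1, Cdh5 and Flt1 held Acta2 at 6.74 and 8.90 CPM, and gated fibro-adipogenic progenitors at 2.30 and 3.10 CPM.

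**Figure D2:**
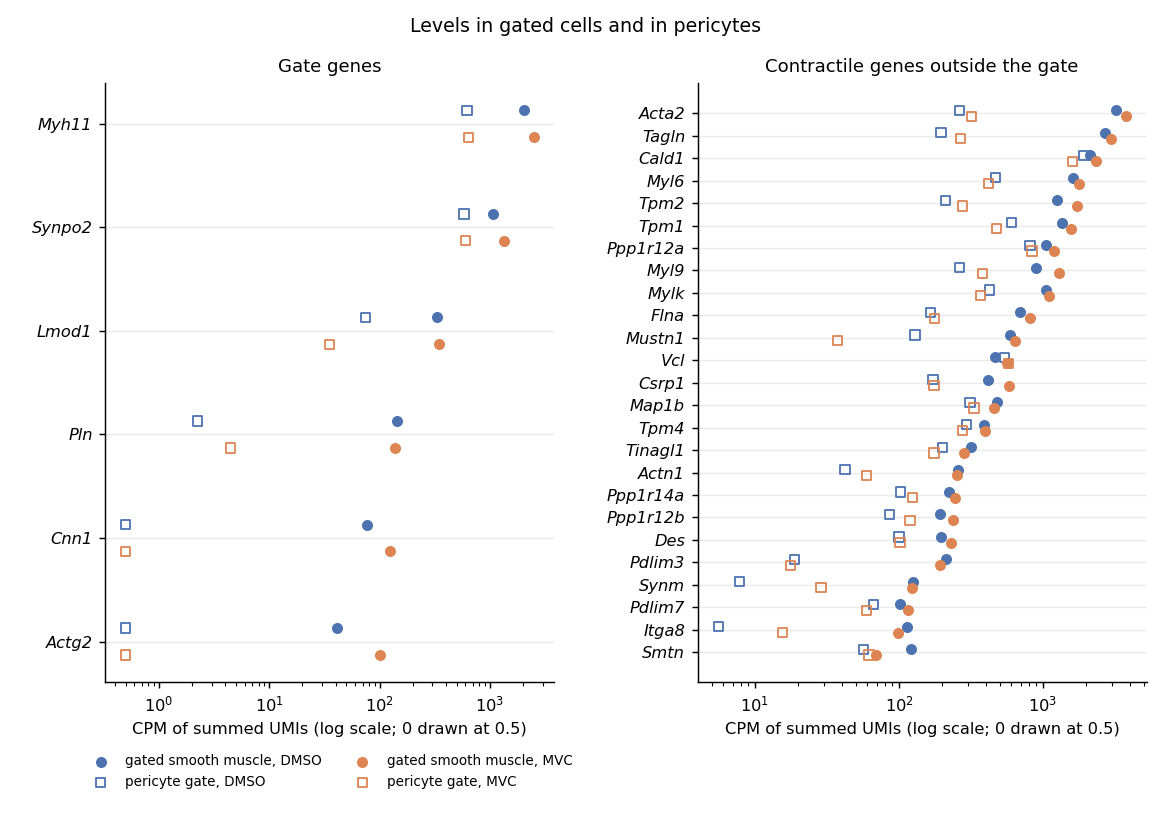
Levels of the 6 gate genes and 25 contractile genes outside the gate in CPM on a log axis, with filled circles for gated smooth muscle cells and open squares for gated pericytes, in DMSO (blue) and MVC (orange), each mark being 1 library with its cells summed. Acta2 lies at 3189 and 3775 CPM against 265 and 318 CPM, while the pairs of Cald1 and Vcl nearly coincide.

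Among all genes outside both gates, those with the largest excess over pericytes in both libraries were Acta2, Rgs7bp, Tagln, Sorbs2, Il1rapl1, Rbm24, Ntrk3, Pdlim3, Thsd4 and Dtna. Rgs7bp, which anchors G protein regulators at the membrane, stood at 302 and 304 CPM against 18.9 and 11.1 in pericytes. Sorbs2, an actin adaptor, stood at 496 and 455 CPM against 37.8 and 28.7. Rbm24, a muscle RNA-binding protein, stood at 204 and 152 CPM against 5.56 and 8.84. Il1rapl1 was found in 10.3% and 9.09% of the gated cells, with 77.5% and 63.8% of its UMIs in 3 of them. Pdlim3 is a Z-line adaptor of alpha-actinin, Dtna encodes a dystrobrevin and Ntrk3 the receptor of neurotrophin-3. The genes with the largest excess in pericytes were Thbs4, Pde7b, Nedd4l, Impa2, Igfbp6, Zfp385b, Fap, Prex2, Pde8b and Lama2. Pde7b, a cAMP phosphodiesterase, stood at 148 and 179 CPM in the gated smooth muscle cells against 586 and 697 in pericytes, and Lama2, a laminin chain, at 155 and 190 CPM against 474 and 803. Igfbp6 was found in 4.04% and 6.09% of the pericytes and in 95.8% and 92.3% of the fibro-adipogenic progenitors. Thbs4 is also on the tenocyte list, of which a single DMSO pericyte held 600 of 1077 UMIs, and its excess was 628 and 95.1 CPM against 65.7 and 3.62.

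By role, calcium channels and pumps divided. Of 14 calcium and channel genes compared with pericytes, Kcnma1, Kcnab1, Trpc6 and Slc8a1 were at least 2-fold higher in the gated smooth muscle cells in both libraries and 1 gene was lower. Kcnab1, a beta subunit of voltage-gated potassium channels, stood at 644 and 399 CPM against 77.8 and 64.1 in pericytes. Slc8a1, the sodium-calcium exchanger, stood at 219 and 279 CPM against 90.0 and 119. Cacna1c, the pore of the L-type calcium channel, stood at 1189 and 1673 CPM against 1478 and 2118 and was under 2-fold apart. Of 9 receptors compared none was 2-fold higher, while Agtr1a (the angiotensin receptor, 57.5 and 92.4 CPM against 160 and 270) and Ednrb (an endothelin receptor, 403 and 381 CPM against 1049 and 769) were at least 2-fold higher in pericytes. Of 21 genes of cGMP and G protein signalling, Rgs7bp and Plcb1 (a phospholipase C) were at least 2-fold higher and none was lower. Prkg1, the cGMP-dependent kinase, stood at 3826 and 3708 CPM against 4332 and 4301, and Gucy1a1, a subunit of soluble guanylate cyclase, at 657 and 674 against 823 and 599. Myocd, the myocardin gene, was the only one of 13 regulators of smooth muscle identity to be 2-fold higher, at 138 and 120 CPM against 26.7 and 22.1. Of 31 matrix genes Eln (elastin, 79.8 and 83.4 CPM against 33.3 and 31.0) and Lama5 (a laminin chain, 134 and 94.2 CPM against 12.2 and 8.84) were higher. Of 7 genes of the synthetic smooth muscle state, 3 were higher: Tnc (tenascin C), Vim (vimentin) and Thbs1 (thrombospondin 1), the last at 1330 and 1127 CPM against 626 and 241.

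Because the gate was a mixture, its 88 cells with fewer than 3 pericyte genes (53 in DMSO and 35 in MVC) were set beside the 96 with 3 or more, in each library. This split was made after the values had been seen, and its genes are named for the same reason. Of 2112 genes with at least 50 UMIs in each library, 64 were at least 2-fold higher in the cells without pericyte genes in both libraries (3.03%) and 126 were lower (5.97%). Among 25 contractile genes 10 were higher and none lower, with median log2 ratios of 0.95 in DMSO and 0.93 in MVC beside -0.02 and -0.04 over all genes. Acta2 stood at 4750 and 5226 CPM in the cells without pericyte genes against 1352 and 2590 CPM in those with them, which in MVC lies barely past the 2-fold bound. The gap was wider for the intermediate filament gene Synm (198 and 222 CPM against 38.3 and 42.8) and the integrin gene Itga8 (180 and 161 against 35.8 and 46.1). Vcl went the other way, at 404 and 484 CPM against 531 and 622.

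The same split separated channels and receptors. Kcnma1, the large-conductance calcium-activated potassium channel, stood at 382 CPM in DMSO and 250 in MVC in the cells without pericyte genes, against 25.5 and 36.2. Kcnab1 stood at 1031 and 758 CPM against 189 and 105. Ryr2, the calcium release channel of the reticulum, stood at 167 and 113 CPM in the cells without pericyte genes on 77 and 28 UMIs, and had 0 and 2 UMIs in the others, but 3 cells held 51.9% and 53.3% of its UMIs. The alpha-1A adrenoceptor gene Adra1a stood at 332 and 190 CPM against 53.7 and 62.5, and the vasopressin receptor gene Avpr1a at 241 and 109 against 69.0 and 29.6. Receptors on the pericyte side were Agtr1a (4.34 and 24.2 CPM against 120 and 148), Ednrb (163 and 181 against 685 and 543) and the PDGF receptor Pdgfrb (213 and 206 against 649 and 425). Summed levels of Adra1a and Avpr1a thus lay at the opposite pole from those of Agtr1a and Ednrb in both libraries. The UMIs of Adra1a and Avpr1a were concentrated in few cells, and 3 cells held 44.9% of the Avpr1a UMIs in DMSO. Ryr2, Avpr1a and Agtr1a had fewer than 50 UMIs in a library and are not in the counts. Endothelin receptor A did not separate them, with Ednra at 267 and 278 CPM against 278 and 273. In the matrix list Lama5 was higher in the cells without pericyte genes (200 and 149 CPM against 56.2 and 49.4), and Fbn1, Col6a1, Col6a2, Col6a3 and Nid1 were lower. Nid1, a basement membrane linker, stood at 60.8 and 44.4 CPM against 332 and 151. Of the stress genes, Hspa1a, an inducible heat shock chaperone, stood at 2370 and 1819 CPM against 6152 and 6010.

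**Figure D3:**
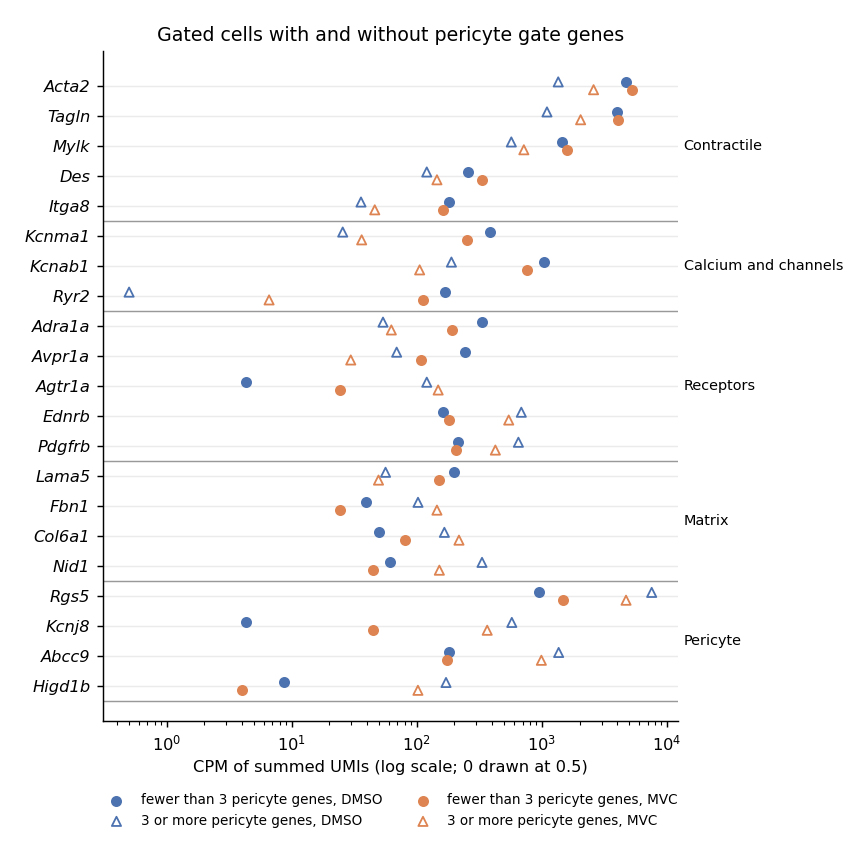
Levels of selected genes in CPM (log axis, 0 drawn at 0.5) in gated cells with fewer than 3 pericyte genes (filled circles) and with 3 or more (open triangles), in DMSO (blue) and MVC (orange), 1 library each. Contractile genes, Kcnma1, Kcnab1, Ryr2, Adra1a and Avpr1a lie to the right in the filled circles, and Agtr1a, Ednrb, Nid1 and the pericyte genes lie to the right in the triangles. Kcnj8, Abcc9 and Higd1b are among the genes that made the split, so their place follows from the choice of cells.

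The genes that varied most from cell to cell, after every gated cell was thinned to 2000 UMIs, were Gm42418, Cxcl1, Hspa1a, Malat1, Mt1, Ccl2, Hspb1, Hspa1b, Csmd1 and Hsp90aa1. The ratio of variance to mean had a median of 1.84 in DMSO and 1.83 in MVC over 608 genes. Cxcl1, a neutrophil chemokine, reached 23.9 and 17.8, was found in 55.1% and 62.3% of cells and ran up to 284 and 296 UMIs in a cell, with medians of 1 and 2. Ccl2, a monocyte chemokine, reached 15.2 and 14.3 and was found in 38.3% and 46.8% of cells. These chemokines were thus concentrated in part of the gated cells in both libraries, and the 3 highest cells held 39.2% and 40.1% of the Ccl2 UMIs. Chaperones made up 4 of the 10 (Hspa1a, Hspa1b, Hspb1 and Hsp90aa1), and Gm42418 lies over ribosomal RNA repeats, so its count can hold ribosomal reads. None of the contractile genes was among these 10.

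MVC was then set against DMSO. The gated cells made up 1.97% of kept cells in DMSO (1.62 to 2.37%) and 1.41% in MVC (1.12 to 1.76%), a difference of -0.556 percentage points (-1.05 to -0.0712 by counting error). With each cell thinned to 2000 UMIs before gating the shares were 1.10% and 0.939%. The pericyte gate also held a smaller share in MVC, 2.11% of kept cells against 3.64%. Within the mural cells, taken as both gates together, the smooth muscle gate made up 35.1% in DMSO (29.7 to 40.7%) and 40.1% in MVC (33.1 to 47.4%), intervals that overlap. All shares are of cells that passed the viability sort and the minimum of 500 genes.

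Across the gated cells 222 of 4452 genes with at least 50 UMIs were at least 2-fold apart between the libraries (4.99%), 105 higher in MVC (2.36%) and 117 lower (2.63%). The pericyte gate gave 228 of 4560 (5%). For gene lists the minimum was 20 UMIs, at which 695 of 7319 genes were 2-fold apart (9.5%), 370 higher (5.06%) and 325 lower (4.44%). The median log2 ratio of MVC over DMSO over these genes was 0.03, a value that scaling each library to its own total holds near 0. The shares of 5.06% and 4.44% are the background for every list count of MVC against DMSO below.

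The contractile program stayed close to its DMSO level. None of the 26 contractile genes was 2-fold apart, 19 were higher in MVC, and their median log2 ratio was 0.15 (0.05 in pericytes). Acta2 stood at 3189 CPM in DMSO and 3775 in MVC, a ratio of 1.18 (1.12 to 1.25). Tagln stood at 2680 and 2965 CPM, a ratio of 1.11 (1.04 to 1.18). The largest ratio in the list was that of Myl9, the regulatory myosin light chain (890 and 1292 CPM, 1.45, 1.31 to 1.61), and the smallest was that of the smoothelin gene Smtn (122 and 68.9 CPM, 0.56, 0.38 to 0.83). Within the gate, the Acta2 ratio was 1.10 (1.03 to 1.18) in the cells without pericyte genes and 1.92 (1.71 to 2.14) in the cells with them. For Tagln these ratios were 1.02 (0.94 to 1.10) and 1.86 (1.64 to 2.11). Of the gate genes, Actg2 had a ratio of 2.47 (1.59 to 3.88) and Cnn1 of 1.62 (1.13 to 2.31), on 35 and 56 and on 65 and 68 UMIs.

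Calcium and channel genes had a median of -0.21 (0.02 in pericytes), with 10 of 21 higher in MVC and 2 at least 2-fold lower, beside 4.44% of all genes. Ano1, a calcium-activated chloride channel, stood at 307 CPM in DMSO and 585 in MVC, a ratio of 1.90 (1.61 to 2.25), and Cacna1c at 1189 and 1673 CPM, 1.41 (1.29 to 1.54). Kcnma1 (218 and 132 CPM, 0.61, 0.46 to 0.80), Kcnab1 (644 and 399, 0.62, 0.53 to 0.72) and Ryr2 (90.4 and 54.4, 0.60, 0.38 to 0.93) were lower in MVC, and these were genes of the contractile pole described above. Of 15 receptors 1 was 2-fold higher and 2 were lower, beside 5.06% and 4.44% of all genes, with a median of -0.18 (-0.24 in pericytes). Avpr1a stood at 162 and 65.2 CPM, a ratio of 0.40 (0.27 to 0.58), and Adra1a at 204 and 120 CPM, 0.59 (0.43 to 0.78), with the 3 highest cells holding 40.9% to 52.8% of their UMIs in a library. Ramp1, a partner of the calcitonin receptor-like receptor, rested on 19 and 37 UMIs (22.3 and 67.1 CPM, 3.01, 1.69 to 5.54). Of 23 genes of cGMP and G protein signalling none was 2-fold apart, and the median was 0.06 (-0.01 in pericytes). Prkg1 stood at 3826 and 3708 CPM, 0.97 (0.92 to 1.02), and Rgs5 at 3984 and 3255 CPM, 0.82 (0.77 to 0.87).

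Notch signalling maintains mural cells through the receptor Notch3. Notch3 itself stood at 715 and 652 CPM, a ratio of 0.91 (0.80 to 1.04), while Notch2 stood at 162 and 65.2 CPM, 0.40 (0.27 to 0.58), and the target gene Heyl at 127 and 67.1 CPM, 0.53 (0.35 to 0.77). Notch2 was found in 47.7% and 35.1% of the cells, and in pericytes it stood at 70.0 and 77.4 CPM. Of 10 Notch genes 1 was 2-fold higher (Nrip2, 44.6 and 94.2 CPM) and 1 lower (Notch2), beside 5.06% and 4.44% of all genes. On this list 3 were higher at all, with a median of -0.33 (0.08 in pericytes). Among 17 regulators the median was -0.01, and Myocd stood at 138 and 120 CPM, 0.86 (0.63 to 1.18). Klf2, a flow- and stress-responsive factor, stood at 278 and 96.1 CPM, 0.35 (0.25 to 0.47), with the 3 highest cells holding 37.6% and 41.5% of its UMIs.

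Of 37 matrix genes 3 were 2-fold higher in MVC and 2 lower, beside 5.06% and 4.44% of all genes, 18 were higher at all, and the median was -0.02 (0.10 in pericytes). Timp3, an inhibitor of matrix proteases, stood at 2082 and 1936 CPM, 0.93 (0.86 to 1.0). Col3a1, a fibrillar collagen, stood at 128 and 277 CPM, 2.17 (1.68 to 2.80), and the microfibril gene Mfap5 at 51.6 and 123 CPM, 2.39 (1.61 to 3.57). Both are also fibroblast markers, and the summed fibroblast list stood at 1716 and 2088 CPM. Mgp (matrix Gla protein, 261 and 59.8 CPM, 0.23, 0.15 to 0.33) and Lox (lysyl oxidase, 91.5 and 21.7 CPM, 0.24, 0.12 to 0.44) were lower, but with 47.7% and 67.9% of their DMSO UMIs in 3 cells. The list of the synthetic state had 0 genes 2-fold higher and 3 lower of 12, beside 5.06% and 4.44% of all genes, with a median of -0.38 (-0.04 in pericytes). Its members Thbs1 (1330 and 1127 CPM, 0.85, 0.77 to 0.94) and Vim (1199 and 1048 CPM, 0.87, 0.79 to 0.97), differed little.

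By number of genes, the immediate early list had the most members at least 2-fold lower in MVC, but it was a long list. Some shorter lists had a larger share, such as 4 of 12 glucocorticoid-responsive genes and 3 of 11 interferon-induced genes. Immediate early transcripts appear within minutes of a stimulus, and tissue digestion induces them as well as signals do. The paper states that isolating the cells can quickly activate AP-1 factors, a family that includes Junb and Fos. With 1 library per treatment, cell handling and treatment cannot be told apart for this list. Of 33, 7 were at least 2-fold lower in MVC and none higher, beside 4.44% and 5.06% of all genes. Only 4 were higher at all, and the median log2 ratio was -0.44 in the gated cells and -0.36 in pericytes. Junb stood at 2558 and 1756 CPM, a ratio of 0.69 (0.64 to 0.74). Cebpd stood at 967 and 430 CPM, 0.44 (0.38 to 0.51), Ier3 at 285 and 123, 0.43 (0.33 to 0.57), and Socs3, an inhibitor of cytokine signalling, at 309 and 140, 0.45 (0.35 to 0.58). Fos, by contrast, stood at 2212 and 2155 CPM, 0.97 (0.91 to 1.05), and Klf6 had the largest ratio of the members with at least 50 UMIs at 333 and 406 CPM, 1.22 (1.02 to 1.46). A list of glucocorticoid-responsive genes and metallothioneins had 12 genes to compare, and all were lower in MVC. Of them 4 were at least 2-fold lower, beside 4.44% of all genes, and the median was -0.71 (-0.58 in pericytes). The smallest difference was that of Fkbp5, at 55.2 and 48.9 CPM, a ratio of 0.89. The metallothioneins were Mt1 (5428 and 3356 CPM, 0.62, 0.59 to 0.65) and Mt2 (1458 and 774 CPM, 0.53, 0.47 to 0.59). Zbtb16, a transcription factor on the list, stood at 205 and 87.0 CPM, 0.42 (0.30 to 0.59). Heat shock genes had a median of 0.01 over 17 genes (-0.07 in pericytes), with Hspa1a at 4108 and 4127 CPM (1.0, 0.95 to 1.06) and Cryab, a small chaperone, at 203 and 464 CPM (2.29, 1.88 to 2.79), of which 3 cells held 30.6% and 55.9% of the UMIs. In the cells without pericyte genes the ratio was 0.55 (0.49 to 0.61) for Hspa1b, 0.65 (0.58 to 0.73) for Hspb1 and 0.77 (0.69 to 0.86) for Hspa1a, and in those with them it was 1.10 (1.03 to 1.17), 1.03 (0.96 to 1.11) and 0.98 (0.92 to 1.04).

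**Figure D4:**
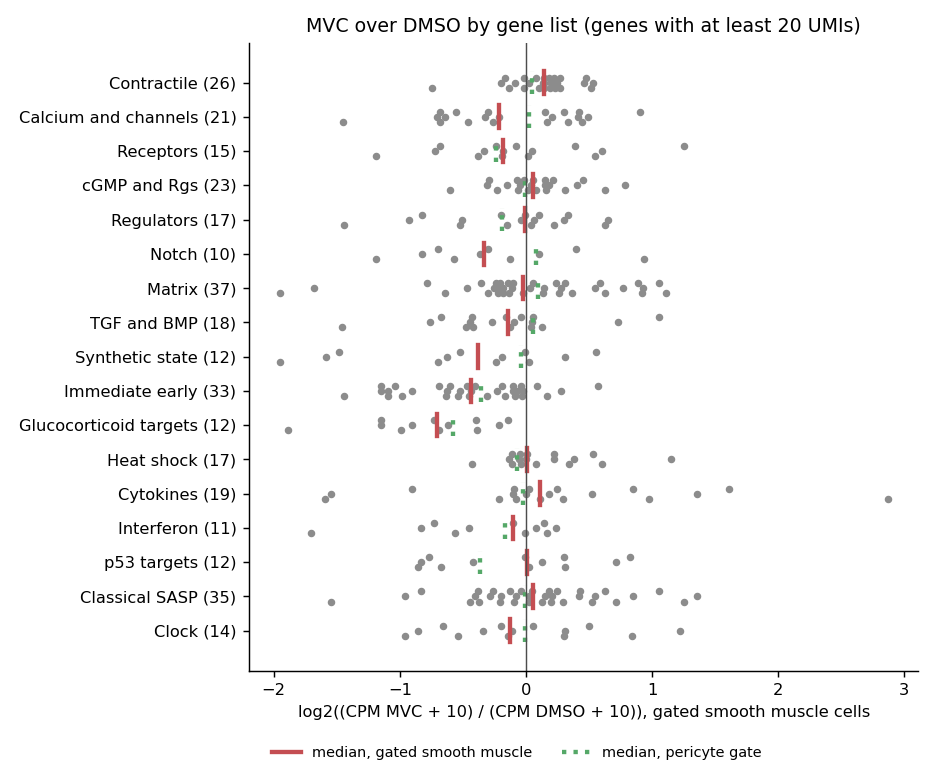
Log2 ratio of MVC over DMSO (pseudocount of 10 CPM) for every gene with at least 20 UMIs in the gated cells, grouped by list, with grey points for genes, a red bar for the median in the gated smooth muscle cells and a dotted green bar for the median in gated pericytes. The immediate early and glucocorticoid lists lie to the left in both classes (-0.44 and -0.36, -0.71 and -0.58), and the contractile and heat shock medians are 0.15 and 0.01.

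Senescence is a subject of the study, and p21, the cell cycle inhibitor made by Cdkn1a (chr17:29090976-29100727, plus strand), is among its common markers. Cdkn1a stood at 661 CPM in DMSO and 410 in MVC on 563 and 226 UMIs, a ratio of 0.62 (0.53 to 0.72), and was found in 72% and 50.6% of the gated cells. With every cell thinned to 2000 UMIs it was found in 43.4% and 35.6%, and in 3.87% and 5.17% of B cells thinned likewise (median depths of 5229 and 6994 UMIs before thinning). It was lower in MVC in the cells with pericyte genes (480 and 273 CPM) and in those without (814 and 577 CPM). The same direction held at 333 and 144 CPM in pericytes, 1248 and 781 CPM in endothelial cells and 279 and 154 CPM in fibro-adipogenic progenitors. In thinned B cells (155 in DMSO and 58 in MVC) the share holding it was low, at 3.87% and 5.17%. Those shares rest on few cells and give no direction. The 12 p53 target genes, which include Cdkn1a, had a median of 0.01 (-0.36 in pericytes), with Mdm2 at 50.5 and 56.2 CPM (1.11, 0.68 to 1.81), Fas at 185 and 99.7 CPM (0.54, 0.39 to 0.73) and Gdf15 at 83.3 and 143 CPM (1.72, 1.23 to 2.4).

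Of the 118 factors of the classical senescence-associated secretory phenotype (SASP), 102 were found by name and 35 had at least 20 UMIs. Of these 35, 3 were 2-fold higher in MVC and 2 lower, beside 5.06% and 4.44% of all genes. In all 20 were higher, and the median was 0.05 (-0.01 in pericytes). The list is the study's classical SASP list, matched to mouse by gene symbol, and the paper's full SASP set was wider. Cxcl1 stood at 2684 and 3293 CPM, a ratio of 1.23 (1.15 to 1.31), and Ccl2 at 1084 and 1560 CPM, 1.44 (1.31 to 1.58). Il6 stood at 1340 and 1267 CPM, 0.95 (0.86 to 1.04). For Ccl2 the ratio was 0.80 (0.66 to 0.97) in the cells without pericyte genes and 1.61 (1.44 to 1.80) in those with them, and 3 cells held 30.3% and 35.1% of the Cxcl1 UMIs. Cxcl2 stood at 204 and 538 CPM, 2.64 (2.18 to 3.20), and the antiviral chemokine gene Cxcl10 at 194 and 59.8 CPM, 0.31 (0.21 to 0.45), but 3 cells held 73.0% of the Cxcl2 UMIs in DMSO and 69.7% and 72.7% of those of Cxcl10. Among 19 cytokine genes, 4 were 2-fold higher and 2 lower, beside 5.06% and 4.44% of all genes. Those higher included Tnfaip2 (106 and 343 CPM, 3.24), and in MVC 3 cells held 44.4% of its UMIs and 44.1% of those of Cxcl2. Of 11 interferon-induced genes 3 were 2-fold lower and none higher, beside 4.44% and 5.06% of all genes. They were led by Iigp1 at 633 and 187 CPM (0.30, 0.24 to 0.36), with 36.9% and 60.2% of its UMIs in 3 cells.

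The genes with the largest ratios among those with at least 100 UMIs and not held by a few cells are given last. Those higher in MVC were Alpk1, a kinase of innate immune sensing (65.7 and 205 CPM, 3.12, 2.24 to 4.37), the DNA repair gene Fancc (50.5 and 112, 2.23, 1.49 to 3.37), the integrin gene Itga9 (88.0 and 188, 2.14, 1.58 to 2.92) and Nr3c2, the mineralocorticoid receptor (146 and 303, 2.08, 1.64 to 2.65). They were followed by Pop5, Col6a3, Nr1d2, Vps13b, Il15ra and Itpkb, with ratios of 2.0 down to 1.81, and the Il15ra ratio was 5.57 in the cells without pericyte genes and 0.97 in those with them. Of these 10, pericytes had the same direction in 9 and Nr1d2, a clock repressor, was lower there (93.4 and 73.0 CPM, against 64.5 and 123 in the gated cells). The pericyte intervals of Itga9, Pop5, Il15ra and Nr1d2 included a ratio of 1. Those lower in MVC were Ddit4, an inhibitor of mTORC1 (167 and 61.6 CPM, 0.37, 0.25 to 0.54), the triglyceride lipase gene Pnpla2 (99.8 and 38.1, 0.38, 0.22 to 0.62), the glutamine synthetase gene Glul (171 and 67.1, 0.39, 0.27 to 0.56) and Notch2. They were followed by Zbtb16, Ier3, Cebpd, Tob2 and Socs3, with ratios of 0.42 to 0.45. In pericytes 7 of these 9 were lower in MVC, while Notch2 and Pnpla2 (31.1 and 35.4 CPM) were not. The pericyte intervals of Tob2, Notch2 and Pnpla2 included a ratio of 1. The share of all genes with the same direction in both classes is not given, so these counts have no baseline. A further 57 genes higher in MVC and 23 higher in DMSO had been passed over because 3 cells held over 25% of their UMIs.

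**Figure D5:**
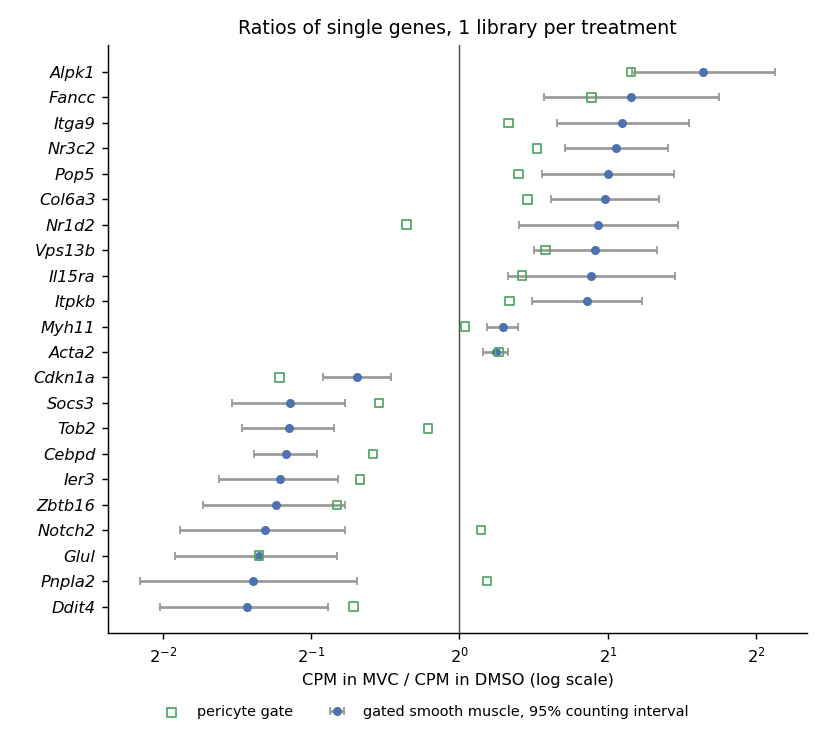
CPM in MVC over CPM in DMSO on a log axis for 19 genes named by the rule and for Myh11, Acta2 and Cdkn1a, with circles and 95% counting intervals for gated smooth muscle cells and squares for gated pericytes. The squares of Nr1d2, Notch2 and Pnpla2 lie on the other side of 1 from their circles, and Cdkn1a lies at 0.62 with its square further left.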

How the data were processed

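The authors' deposited matrices held raw UMI counts of 32285 genes per cell barcode for each library, and the submitters' processing notes name Cell Ranger 7.0.0, Seurat 5.0.1 and the build mm10. Only these counts were used. Kept cells numbered 5437 in DMSO and 5454 in MVC (38748234 and 35518029 UMIs). Counts of the gated cells were summed per library and divided by their total to give CPM, so a level is weighted towards deeper cells, and free RNA was not subtracted. A gene counted as apart at a CPM ratio of at least 2 or at most 0.5, between classes in both libraries. Log2 ratios carry a pseudocount of 10 CPM. Doublets were called by similarity to simulated doublets and were not removed. Intervals are Clopper-Pearson for shares and exact conditional for ratios. Scripts ran in Python 3.11.15 with numpy 2.4.6, scipy 1.17.1, pandas 2.3.3, scikit-learn 1.9.0 and matplotlib 3.10.9, and were tested on simulated data. Gene coordinates are those of GENCODE M21 on GRCm38, in which 32235 of the 32285 gene IDs were found.

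The cells and the gene lists were chosen with earlier results of these data known. Genes were named as the 6 gate genes, as the highest and most different members of each list, as the 10 largest and 10 smallest ratios with at least 100 UMIs of which no 3 cells held over 25%, as the 10 most different from pericytes on each side, and as the 10 most variable. Genes named outside this rule were chosen after their values were seen. A few genes that the rule or lists hold are not reported here. Alternatives changed the gate, the cell filter, the weighting of cells, the UMI minimum and the pericyte gate.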

Additional observations from a re-analysis of the deposited data

How the results depend on the processing

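No paired analysis was possible because each treatment had 1 library. Of 136 values of the main comparisons recomputed under alternatives, 96 stayed within their bounds, 39 moved and 1 reversed, and of 160 values of named genes 143 stayed, 17 moved and 0 reversed. Those that moved by over 1.5 times were Il15ra (from 1.85 to 3.75 with 4 gate genes required and 5.57 without the cells with pericyte genes), Ddit4 (from 0.37 to 0.21 and 0.24 likewise), and, without the clauses on other cell types, Fancc (from 2.23 to 1.45), Glul (from 0.39 to 0.68) and Ier3 (from 0.43 to 0.73), the last 3 no longer 2-fold apart. Ier3 and Tob2 stood at 0.29 and 0.30 with 4 gate genes required. Also under 2-fold were Nr3c2 (1.55), Cebpd (0.54) and Tob2 (0.56) without the clauses, and Zbtb16 (0.61) and Socs3 (0.63) with 4 gate genes required. The cause of each change below was not tested. With at least 4 of the 6 gate genes required, the gated shares were 0.717% in DMSO and 0.587% in MVC, 507 genes were apart from pericytes (321 lower) and the Cdkn1a ratio was 0.455. Without the clauses on other cell types the shares were 2.61% and 2.18%, 169 genes were higher in MVC, 209 were higher than in pericytes, the Cdkn1a ratio was 0.453 and the contractile median 0.038. Under a stricter cell filter (a minimum of 1000 genes, a maximum of 5% mitochondrial UMIs) the DMSO share was 1.58%, 109 genes were apart from pericytes (72 higher and 37 lower), the immediate early median was -0.25 and the matrix median turned from -0.02 to 0.14. Gating on thinned cells gave shares of 1.10% and 0.939%. With the mean of each cell's CPM, 73 genes were lower than in pericytes and the contractile median was 0.32. A minimum of 20 UMIs gave 695 genes apart between treatments (370 higher and 325 lower) and 450 from pericytes (223 and 227), a minimum of 100 gave 96 between treatments (46 and 50), and no minimum gave 6194 (3053 and 3141). With at least 4 pericyte genes in the pericyte gate 195 genes were higher than in pericytes. Leaving out the gated cells with at least 3 pericyte genes, an alternative chosen after seeing the data, gave shares of 0.975% and 0.642%, 64 genes higher in MVC, 461 apart from pericytes (299 lower) and an immediate early median of -0.59. Leaving out gated cells with over 50 UMIs of the fibroblast gene Dcn, also chosen after seeing the data, moved none of these.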

Other observations

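In the list of TGF-beta and BMP signalling, 1 of 18 genes was 2-fold higher in MVC and 1 lower, 6 were higher at all, and the median log2 ratio of MVC over DMSO was -0.14 (0.06 in pericytes). Bmp6, a BMP ligand, stood at 106 CPM in DMSO and 230 in MVC, a ratio of 2.18 (1.65 to 2.89) with 52.8% of its MVC UMIs in 3 cells, and Id1, a BMP target gene, at 147 and 47.1 CPM, a ratio of 0.32 (0.20 to 0.49) with 48% of its DMSO UMIs in 3 cells. Id3, a further BMP target, stood at 1526 and 951 CPM. Of 14 circadian clock genes 1 was 2-fold higher (Nr1d1, 10.6 and 38.1 CPM) and 3 were lower (Bhlhe40, Bhlhe41 and Npas2), with a median of -0.12 (-0.01 in pericytes), and Bhlhe40, a clock repressor, stood at 122 and 58.0 CPM. None of 4 cell cycle inhibitor genes, Cdkn1a included, was 2-fold apart, 0 were higher in MVC, and the median was -0.45 (-0.35 in pericytes). Cdkn2a, which makes p16 and p19, had 3 and 2 UMIs in the gated cells and could not be compared at this depth. Of the 15 pericyte genes none was 2-fold apart, 4 were higher in MVC, and the median was -0.13 (-0.07 in pericytes).

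Some differences rested on few cells. Il33, an alarmin, stood at 12.9 and 158 CPM, and a single MVC cell held 86 of its 87 UMIs there. The fibroblast markers had 5 of 10 genes 2-fold higher in MVC and 1 lower, and for Dcn, decorin, 3 cells held 91.0% and 89.8% of its UMIs. Of 3 tenocyte markers with at least 20 UMIs 2 were 2-fold lower in MVC, where Fmod, fibromodulin, had 220 UMIs in DMSO and 20 in MVC.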
